A study of Mus musculus with 10 samples.

Results

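Tenascin C, fibronectin and periostin are proteins of the provisional matrix, which are laid down around keratinocytes and fibroblasts when skin is wounded or grows and which cells bind through integrins. Urokinase, encoded by Plau, and tissue plasminogen activator, encoded by Plat, are serine proteases that cut plasminogen to plasmin, the protease with which migrating keratinocytes dissolve fibrin. Plaur encodes the surface receptor that holds urokinase at the cell edge, and Serpine2 encodes protease nexin-1, a serpin that inhibits thrombin and both plasminogen activators. The 7 genes Tnc, Fn1, Postn, Plau, Plaur, Plat and Serpine2 were followed here among the 18121 genes that could be tested. Each gene was read from the probe set that carries its symbol alone in the platform annotation, and where several do, from the one whose mean over all 10 arrays was highest. Each of 6 genes had 1 such probe set, and 5 of these passed the filter on low values. No probe set was named Serpine2 in the annotation used, and this gene was not analysed here.

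The epidermis came from 3-day-old mice, was loosened from the dermis with dispase and was hybridised to GeneChip Mouse Gene 1.0 ST Arrays, 1 mouse per array. ILK-deficient mice (K14Cre; Ilk f/f, n = 5) carried the KRT14-cre transgene and 2 floxed alleles of Ilk, the gene of integrin-linked kinase, an adaptor at integrin adhesions. ILK-expressing mice (K14Cre; Ilk f/+, n = 5) carried the same transgene and 1 floxed allele, so that both genotypes held Cre. The keratin 14 promoter drives Cre in keratinocytes, and other cells of the tissue, such as melanocytes and immune cells, keep their Ilk alleles. The comparison asks which transcripts of these 7 genes differ when keratinocytes lack ILK.

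Values are log2 expression values as deposited, and positive differences mean that the transcript was more abundant without ILK. Array medians lay between 7.07 and 7.17, and the median correlation of an array with the others was 0.974 to 0.986, lowest in ILK-expressing replicates 4 and 5. The probe set of Ilk, which pools probes along the whole transcript, averaged 8.94 ± 0.118 (SD, n = 5) without and 9.17 ± 0.181 (SD, n = 5) with ILK (limma adjusted p = 0.253), and so checks the labels little. Probe sets were called at an adjusted p under 0.05 from limma, with Benjamini-Hochberg adjustment over the 32046 tested. Of these, 2.81% were called higher and 0.97% lower in ILK-deficient epidermis. In whole tissue, fewer cells of a type and less RNA per cell cannot be told apart.

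Tnc, on chromosome 4 (GRCm38.p6, 63959785 to 64047015), was the member that rose. Its values were 12.91, 12.66, 12.41, 12.48 and 12.87 in ILK-deficient replicates 1 to 5, and 11.67, 11.22, 11.20, 10.66 and 11.73 in ILK-expressing replicates 1 to 5. The lowest ILK-deficient array lay above the highest ILK-expressing array, and ILK-expressing replicate 4 was the lowest of all. The means were 12.66 ± 0.224 (SD, n = 5) and 11.30 ± 0.430 (SD, n = 5), which differ on the log2 scale by 1.37 (SE, the standard error, 0.194, 95% interval 0.94 to 1.80, limma adjusted p = 0.0055), a 2.58-fold rise. The two-sided exact permutation test gave p = 0.00794, the smallest that 5 arrays against 5 can give. Ranked by log2 fold change from the largest rise, Tnc was at place 30 of 18121 genes. Leaving out ILK-expressing replicate 4 gave a log2 fold change of 1.21 (limma adjusted p = 0.00657).

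Fn1 (chromosome 1, 71585473 to 71653280), the gene of fibronectin, which binds integrins and collects other matrix proteins into fibrils, did not pass the test. It was at 11.67, 11.35, 11.35, 11.65 and 11.44 in ILK-deficient replicates 1 to 5 and at 11.43, 11.19, 10.54, 10.52 and 11.29 in ILK-expressing replicates 1 to 5. The ILK-expressing arrays were spread, with replicates 3 and 4 low and replicate 1 above 2 of the ILK-deficient arrays. The means were 11.49 ± 0.160 (SD, n = 5) and 10.99 ± 0.434 (SD, n = 5), which differ on the log2 scale by 0.50 (SE 0.185, 95% interval 0.09 to 0.91, limma adjusted p = 0.198, p = 0.0317 by exact two-sided permutation).

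Postn (chromosome 3, 54359267 to 54391041), the gene of periostin, which binds collagen and tenascin C, was at a similar value in every mouse. The ILK-deficient arrays gave 12.98, 12.88, 12.79, 12.93 and 12.89, and the ILK-expressing arrays 13.04, 13.04, 12.99, 12.72 and 12.98. The genotypes overlapped, and ILK-expressing replicate 4 lay below the other 9 arrays. The log2 fold change was -0.06 (SE 0.0732, 95% interval -0.22 to 0.10, limma adjusted p = 0.832).

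**Figure D1:**
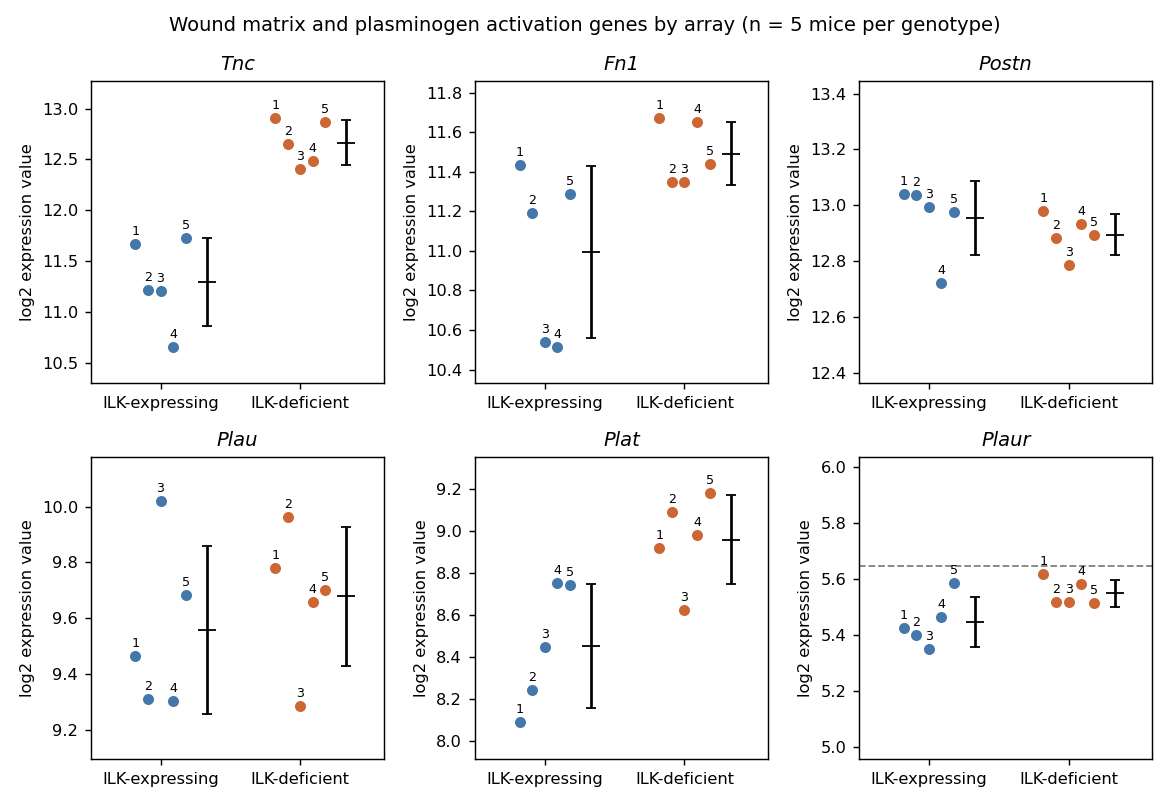
Log2 expression values (vertical axis) of 6 genes in ILK-expressing and ILK-deficient epidermis, 1 numbered point per mouse, with a bar for the genotype mean ± SD to the right of its points; the dashed line in the Plaur panel is the log2 value of the filter, 5.64, and each panel has its own axis. For Tnc alone do the genotypes separate, at 12.41 or more against 11.73 or less.

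The 3 matrix genes did not change alike. The rise of Tnc exceeded the difference in Fn1 by 0.87 on the log2 scale (SE 0.153) and that in Postn by 1.43 (SE 0.172), and the difference in Fn1 exceeded that in Postn by 0.56 (SE 0.168). In each of these 3 comparisons, the per-array difference between the genes did not overlap between the genotypes. An exact permutation test gave p = 0.00794 for each, and p = 0.0106 after Benjamini-Hochberg adjustment over the 4 pairs compared, the fourth being Plat against Plau. These pairs were chosen after the values were seen.

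Upstream sequence is shown for Tnc, which rose, for Postn, which did not pass, and for Plaur, whose values lay under the filter. The table of RefSeq sequences used here (GRCm38.p6) held 4 of the 7 genes, namely Tnc, Postn, Plaur and Serpine2. Fn1, Plau and Plat are named only. Each run below holds the 250 bases before an annotated transcript start, 5′ to 3′ on the strand of the gene. Of the 2 starts annotated for Tnc and for Postn, the outer is shown for Tnc and the inner for Postn. The stretch of Tnc lies outside the annotated gene, whereas those of Postn and Plaur lie within the annotated span of the gene, before an inner start. Capitals mark matches, on either strand, to the TATA box (TATAAA), the AP-1 site (TGANTCA), the GC box (GGGCGG) and the TEAD site (GGAATG). Of the GC boxes of Plaur, the pair nearest to the start shares a base, and no motif overlaps one of another name.
Tnc, chr4:64047016-64047265, minus strand: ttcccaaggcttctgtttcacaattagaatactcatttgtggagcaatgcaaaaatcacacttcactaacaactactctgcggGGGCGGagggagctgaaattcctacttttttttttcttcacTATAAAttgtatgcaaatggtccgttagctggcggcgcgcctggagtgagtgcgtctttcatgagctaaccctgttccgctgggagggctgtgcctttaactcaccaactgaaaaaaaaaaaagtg
Postn, chr3:54360857-54361106, plus strand: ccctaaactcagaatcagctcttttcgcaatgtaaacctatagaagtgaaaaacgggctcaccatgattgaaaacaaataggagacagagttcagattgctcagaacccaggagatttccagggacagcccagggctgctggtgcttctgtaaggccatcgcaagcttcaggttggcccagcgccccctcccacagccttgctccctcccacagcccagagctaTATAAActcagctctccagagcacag
Plaur, chr7:24462233-24462482, plus strand: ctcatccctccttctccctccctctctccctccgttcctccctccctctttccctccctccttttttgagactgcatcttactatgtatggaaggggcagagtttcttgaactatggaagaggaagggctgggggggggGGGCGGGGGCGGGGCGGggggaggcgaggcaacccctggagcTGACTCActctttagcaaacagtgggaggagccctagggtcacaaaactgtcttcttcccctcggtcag

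The TATA box of Postn begins 26 bases before the inner start, and the stretch before its outer start held none of the 4 motifs. In Tnc the letters TATAAA begin 126 bases before the start shown. Tnc holds 1 GC box, 167 bases before the start shown. In the stretch before the inner start of Tnc, the letters TATAAA begin 205 bases and the GC box 246 bases before that inner start. That stretch, which is not printed, also holds the letters tatataag near the inner start, which a match to TATAAA leaves out. Plaur holds 3 GC boxes, together with an AP-1 site that begins 69 bases before its start. Motifs were matched by their letters alone, whatever their distance from the start. Among 32851 annotated windows of this length, 12.4% held the TATA box, 6.75% the AP-1 site, 32.7% the GC box and 12.6% the TEAD site. The letters of the TEAD site were not in these 3 windows.

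Among the plasminogen activators, Plat was higher on average and did not pass, and Plau stayed within the spread between mice. Plat (chromosome 8, 22757722 to 22782848) was at 8.92, 9.09, 8.62, 8.98 and 9.18 in ILK-deficient and at 8.09, 8.24, 8.45, 8.75 and 8.74 in ILK-expressing replicates 1 to 5. Of the ILK-deficient arrays, replicate 3 alone reached into the range of the ILK-expressing arrays. The means were 8.96 ± 0.213 (SD, n = 5) and 8.45 ± 0.295 (SD, n = 5), which differ on the log2 scale by 0.50 (SE 0.148, 95% interval 0.18 to 0.83, limma adjusted p = 0.0997, p = 0.0238 by exact two-sided permutation). The call depended on the fit, since the letter code in the sample descriptions as a block gave a limma adjusted p = 0.0325, with a log2 fold change of 0.59, and the labels do not say what that code stands for. With the mean of the probe sets of each gene and no unnamed probe sets, limma gave an adjusted p = 0.0467.

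Plau (chromosome 14, 20836662 to 20843388) was at 9.78, 9.96, 9.29, 9.66 and 9.70 in ILK-deficient and at 9.47, 9.31, 10.02, 9.31 and 9.68 in ILK-expressing replicates 1 to 5. The highest and the lowest of the 10 arrays belonged to replicate 3 of the ILK-expressing and of the ILK-deficient mice, so the genotypes overlapped widely. The log2 fold change was 0.12 (SE 0.158, 95% interval -0.23 to 0.47, limma adjusted p = 0.841). Its interval does not reach 0.50, the log2 fold change of Plat, but the difference between the 2 genes was 0.38 (SE 0.188) and did not pass (exact permutation test, two-sided, p = 0.0873, the same after adjustment over the 4 pairs).

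Plaur (chromosome 7, 24460937 to 24475970) was below the filter on all 10 arrays. Its linear values were 40.7 to 49.0, where the filter asks for 50. On the log2 scale they were 5.62, 5.52, 5.52, 5.58 and 5.51 in ILK-deficient and 5.42, 5.40, 5.35, 5.46 and 5.58 in ILK-expressing replicates 1 to 5, and the genotypes overlapped through ILK-expressing replicate 5. Fitted without the filter, the log2 fold change was 0.10 (SE 0.0565, 95% interval -0.02 to 0.23, limma adjusted p = 0.465). The receptor transcript was not detectable above the filter in either genotype.

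Of the 5 members tested, 1 was called higher and none lower, against 2.81% and 0.97% of all probe sets. At an unadjusted p under 0.05, 3 of the 5 differed, where 15.9% of all probe sets did, and 1 of the 5 had genotypes apart on every array, where 6.33% of all probe sets had. The median log2 fold change of the 5 was 0.50.

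Among other genes of wound matrix, Ccn2, the gene of connective tissue growth factor, a matricellular protein, and Thbs1, the gene of thrombospondin-1, which binds fibronectin and releases TGF-beta from latency, rose together with Tnc. Ccn2 was at 10.79, 11.04, 10.68, 10.86 and 11.06 in ILK-deficient and at 9.64, 8.93, 9.75, 8.84 and 10.00 in ILK-expressing replicates 1 to 5, a log2 fold change of 1.45 (SE 0.215, limma adjusted p = 0.00681). Thbs1 was at 11.17, 10.93, 11.04, 10.77 and 11.36 against 10.34, 9.92, 10.22, 9.41 and 10.14, a log2 fold change of 1.05 (SE 0.173, limma adjusted p = 0.0104). No array of one genotype entered the range of the other for either gene, and ILK-expressing replicate 4 was the lowest array, as for Tnc. Both genes stayed called under all 21 alternative settings.

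Bgn, the gene of the small proteoglycan biglycan, rose by 0.45 on the log2 scale (limma adjusted p = 0.031), and Lama3, which encodes the alpha chain of laminin-332, the laminin over which keratinocytes migrate, rose by 0.45 on that scale (limma adjusted p = 0.0242). The call of Bgn was lost under 11 of 21 alternative settings, among them the removal of any 1 array other than ILK-deficient replicate 3 and ILK-expressing replicate 5 (limma adjusted p = 0.0519 to 0.0678). That of Lama3 was lost under 7, among them the removal of ILK-deficient replicate 1 or 5 or of ILK-expressing replicate 2 or 4 (limma adjusted p = 0.0527 to 0.0674). Sparc, the gene of a collagen-binding matricellular protein, went the other way at -0.65 (SE 0.178, limma adjusted p = 0.0771) and did not pass, although the genotypes did not overlap. It was called lower without ILK-deficient replicate 3 (-0.76, limma adjusted p = 0.0495), with the letter code as a block (-0.70, limma adjusted p = 0.042) and with the mean of the probe sets of each gene (limma adjusted p = 0.0336). Tgfbi, a matrix protein that binds integrins, was at 0.06 (limma adjusted p = 0.935). Of 23 such genes, 19 had a probe set of their own and 17 were tested. Of the 17, 4 were higher, none lower and 13 not called, with a median log2 fold change of 0.14. Of all probe sets, 2.81% were called higher and 0.97% lower.

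Receptors of these matrix proteins gave 2 calls. Itga5, the alpha subunit of the main fibronectin receptor, was at 8.21, 8.69, 7.95, 7.96 and 8.39 in ILK-deficient and at 7.50, 7.15, 7.74, 7.26 and 7.58 in ILK-expressing replicates 1 to 5, without overlap of the genotypes. Its log2 fold change was 0.79 (SE 0.159, limma adjusted p = 0.0239). Itga9, the alpha subunit of an integrin that binds tenascin C, rose by 0.43 (SE 0.101, limma adjusted p = 0.0432), with 1 ILK-deficient array inside the range of the ILK-expressing arrays. Both calls depended on the fit and on the set of arrays. Each was lost with the replicate number as a block, with the letter code as a block, with the arrays of letter D alone and with the one-way comparison of the study's methods (adjusted p = 0.0501 to 0.254 from limma and that comparison). That of Itga5 was lost without ILK-deficient replicate 1 or 5 or ILK-expressing replicate 2 or 4 (limma adjusted p = 0.053 to 0.0666), and that of Itga9 without any 1 array other than ILK-deficient replicate 3 and ILK-expressing replicate 2 (limma adjusted p = 0.0657 to 0.112). Cd44, a hyaluronan receptor that also binds matrix proteins, was at 0.29 (limma adjusted p = 0.101), and Sdc1, the proteoglycan syndecan-1, at -0.11 (limma adjusted p = 0.594). Of 13 receptor genes, all tested, 2 were higher and 11 not called, beside 2.81% of all probe sets called higher and 0.97% lower. Of the 13 log2 fold changes, 11 were above 0, and their median was 0.24.

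In the rest of the plasminogen system limma called no gene. Plasminogen itself (Plg) was below the filter, as were Serpina5, F13a1 and Fgg, while Cpb2 had no probe set of its own in the annotation used. Of 22 genes, 16 were tested. At an unadjusted p under 0.05, 1 of the 16 was higher and 2 were lower, where 15.9% of all probe sets differed. After adjustment, the one-way comparison that the study's methods name called none of the 16 either. The median log2 fold change was 0.02. S100a10 and Anxa2, whose proteins form a complex that binds plasminogen and its activator at the cell surface, were at 0.13 (95% interval -0.01 to 0.27, limma adjusted p = 0.362) and 0.08 (95% interval -0.04 to 0.20, limma adjusted p = 0.594). Serpinb2, the gene of an inhibitor of urokinase that keratinocytes hold in the cell, was at 0.13 (95% interval -0.16 to 0.41, limma adjusted p = 0.772).

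Hgf, the gene of a growth factor related to plasminogen, which fibroblasts make and keratinocytes respond to, had the largest difference of the 16, at -0.96 (SE 0.239, limma adjusted p = 0.053). It was at 6.05, 5.98, 6.12, 6.30 and 6.15 in ILK-deficient and at 7.67, 6.69, 7.05, 6.33 and 7.66 in ILK-expressing replicates 1 to 5, with the genotypes just apart at ILK-expressing replicate 4. Without that array Hgf fell by 1.15 on the log2 scale (limma adjusted p = 0.0201), the call that array weights and the mean of probe sets also gave. The ILK-deficient values lay close to the filter, which is 5.64 on this scale, and Hgf was not tested with the filter at a linear value of 100. Serpinb2 and Hgf were chosen after their values were seen.

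**Figure D2:**
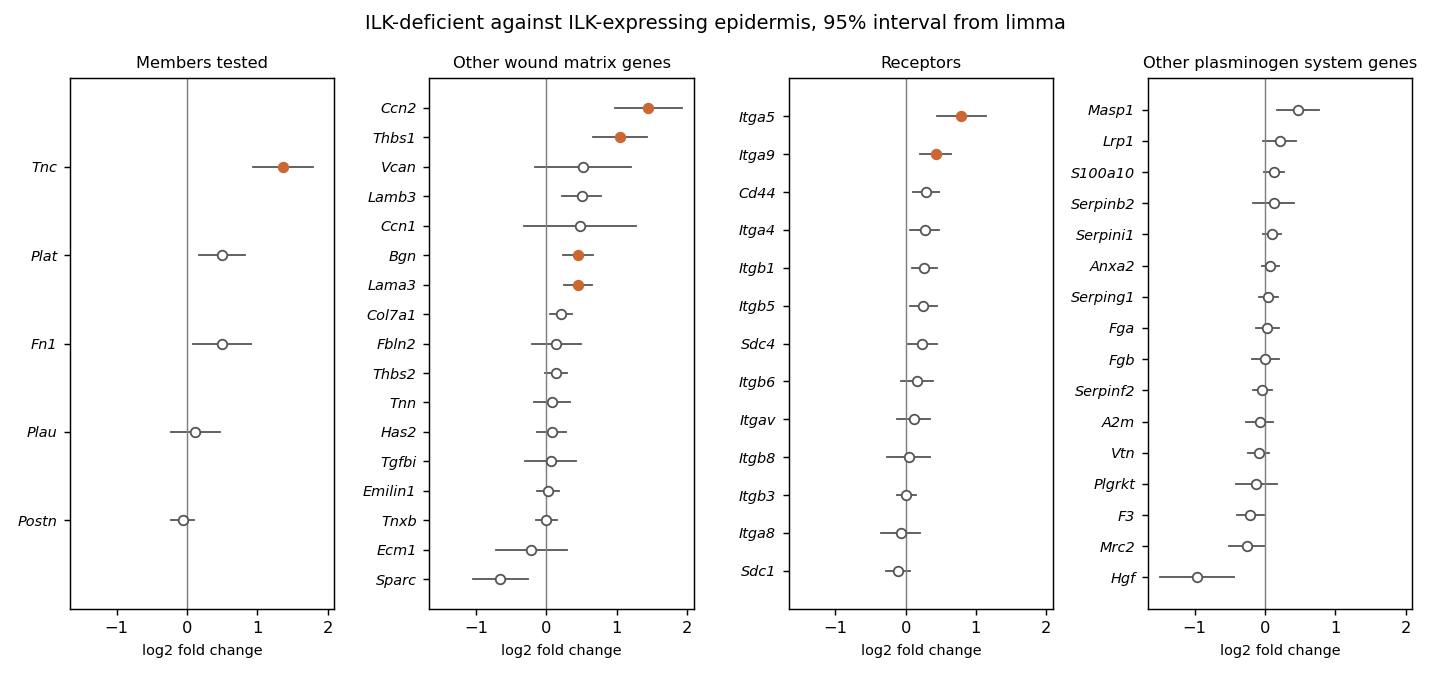
Log2 fold changes (horizontal axis, ILK-deficient minus ILK-expressing) of the 5 members tested, 17 other wound matrix genes, 13 receptors and 16 other genes of the plasminogen system, 1 point per gene with its 95% interval from limma; filled points have an adjusted p under 0.05. Filled points are Tnc at 1.37, Ccn2 at 1.45, Thbs1 at 1.05, Bgn and Lama3 at 0.45, Itga5 at 0.79 and Itga9 at 0.43, and none lies in the plasminogen system.

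Over the deviations of the 10 arrays from the mean of their genotype, Pearson's r was 0.74 between Tnc and Fn1, 0.75 between Tnc and Postn and 0.69 between Fn1 and Postn (Spearman's rho 0.79, 0.56 and 0.71). ILK-expressing replicate 4 was the lowest array in all 3, with deviations of -0.63 in Tnc, -0.48 in Fn1 and -0.23 in Postn. Without that array, r was 0.57, 0.35 and 0.46, while Plau with Plat was at 0.65 and Tnc with Plat at 0.39, so that the matrix genes then did not stand out among the pairs. Within the ILK-deficient arrays alone, r between Tnc and Fn1 was 0.30. Without the 2 arrays farthest from the median of the first gene of a pair, r was 0.53, 0.55 and 0.78. The other 7 pairs of members, including Plau with Plat at 0.38, lay between -0.36 and 0.42 over all arrays. These correlations describe 10 arrays and carry no test.

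**Figure D3:**
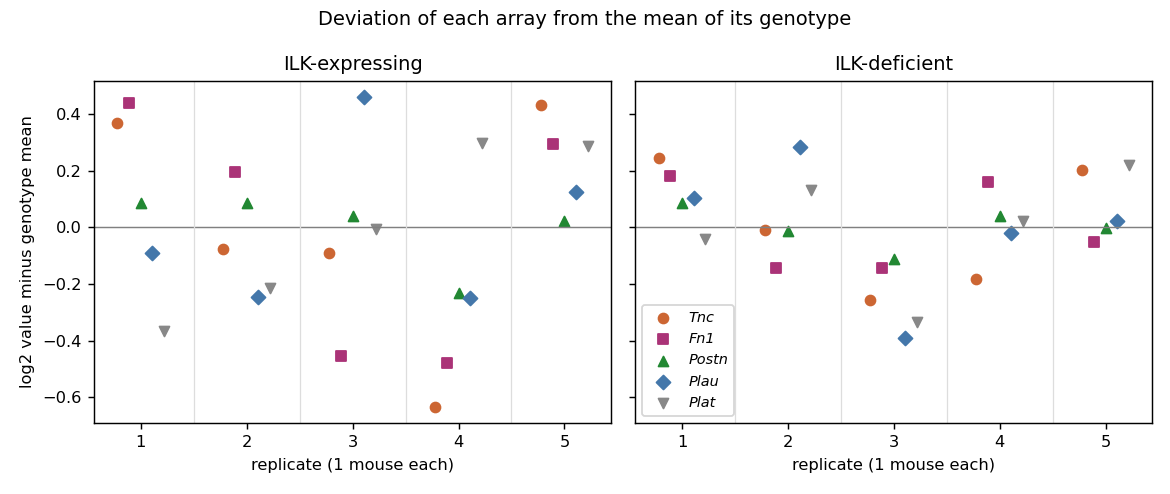
Deviation of each array (horizontal axis, replicate number within each genotype) from the mean of its genotype, in log2 units, for the 5 members tested. In ILK-expressing replicate 4, Tnc at -0.63, Fn1 at -0.48 and Postn at -0.23 are all low, while Plat is at 0.30.

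By the same measure, the genes closest to Tnc among all genes with 1 symbol were Pbx3, a homeobox factor (r = 0.96, log2 fold change 0.44, limma adjusted p = 0.0174), Hip1, an adaptor of endocytosis (r = 0.95, log2 fold change 0.83, limma adjusted p = 0.00205), and Mov10, an RNA helicase (r = 0.95, log2 fold change 0.65, limma adjusted p = 0.00543). Closest to Fn1 were 4933408J17Rik (r = 0.92), Sox5 (r = 0.91) and Plod2, an enzyme that hydroxylates collagen lysines (r = 0.89). Of these, Sox5 alone was called (log2 fold change 0.39, limma adjusted p = 0.0194). Closest to Postn were Tmc4 (r = 0.96), Evl (r = 0.95) and Adamts9, a matrix metalloprotease (r = 0.95). Here Adamts9 alone was called (log2 fold change 0.66, limma adjusted p = 0.0391). The genes closest to Plau were Ddx51, Rrp12 and Dnajc11 (r = 0.97 to 0.99), of which Ddx51 and Rrp12 act in ribosome assembly, and those closest to Plat were Gpc4, Txndc5 and Napepld (r = 0.95 to 0.97). Limma called none of the genes closest to Plau or Plat. With 10 arrays and 18121 genes to choose from, correlations of this size are a description of these arrays.

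Fibroblasts also make fibronectin, periostin and tenascin C, so markers of other cells stand beside these results. Of 10 dermal fibroblast markers limma called none, and the one-way comparison of the study's methods called none after adjustment. At an unadjusted p under 0.05 from limma, 1 was higher and none lower, where 15.9% of all probe sets differed. Of the 10 log2 fold changes, 9 were above 0, and their median was 0.16. The summed linear level of the 10 markers was 3880 to 7066 in ILK-deficient and 1871 to 5797 in ILK-expressing epidermis. Most of this sum was Dcn, and without it the other 9 markers summed to 935 to 1321 and 811 to 1050, with ILK-expressing replicate 4 at 1016 and the lowest array ILK-expressing replicate 5. Dcn, the gene of the dermal proteoglycan decorin, was at 12.25, 12.02, 11.03, 9.74 and 12.00 in ILK-expressing replicates 1 to 5. Its 2 lowest arrays there, replicates 3 and 4, were also the 2 lowest for Fn1 and for Tnc. For Tnc, replicate 3 at 11.20 lay just below replicate 2 at 11.22. In the ILK-deficient arrays Dcn was at 12.27, 12.17, 12.49, 12.42 and 11.52, and its lowest array, replicate 5, was the second highest for Tnc. The part of fibroblast RNA in the values of Fn1 and Tnc was not tested.

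Other markers of the same kind were counted over their whole lists, beside 2.81% of all probe sets called higher and 0.97% lower. Of 6 markers of mural and smooth muscle cells tested, 2 rose, Acta2 by 2.75 on the log2 scale (limma adjusted p = 0.00103) and Cspg4 by 1.27 (limma adjusted p = 0.0124), and their summed level was 1510 to 2469 against 605 to 857. The other 4, Myh11, Cnn1, Rgs5 and Pdgfrb, had differences between -0.05 and 0.08. Of 8 macrophage markers, 2 rose, Adgre1 by 0.50 (limma adjusted p = 0.0107) and Lyz2 by 0.45 (limma adjusted p = 0.0375), with a summed level of 1102 to 1325 against 1002 to 1277. The other 6 were not called, with differences between -0.08 and 0.32, and Cd68, Cd163 and Itgam were below 0. Of 5 endothelial markers none was called, none had an unadjusted p under 0.05, none was called by the one-way comparison, and their values lay between 5.55 and 6.53 on every array, close to the filter.

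Of 6 dermal papilla markers, 2 rose, Trps1 by 0.66 and Hhip by 0.46 (summed level 760 to 854 against 604 to 674). The other 4, Corin, Rspo3, Sox2 and Fgf7, were not called, with differences between -0.07 and 0.05. These 4 and Hhip lay between 5.62 and 6.92 on every array, close to the filter. Of 3 Schwann cell markers, 1 rose, Sox10 by 0.69 (3232 to 4150 against 2589 to 3143), and of 6 melanocyte markers, 4 rose, with the largest called rise that of Tyr at 1.55 (6861 to 13111 against 1802 to 4750). Of 9 keratinocyte markers, which lay between 11.45 and 14.21 on every array, Trp63 rose by 0.35 (limma adjusted p = 0.0204) and Krt14 fell by 0.23 (limma adjusted p = 0.0452), with a summed level of 84452 to 88546 against 87810 to 96514. The part of these cell types in the change of Tnc was not tested.

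**Figure D4:**
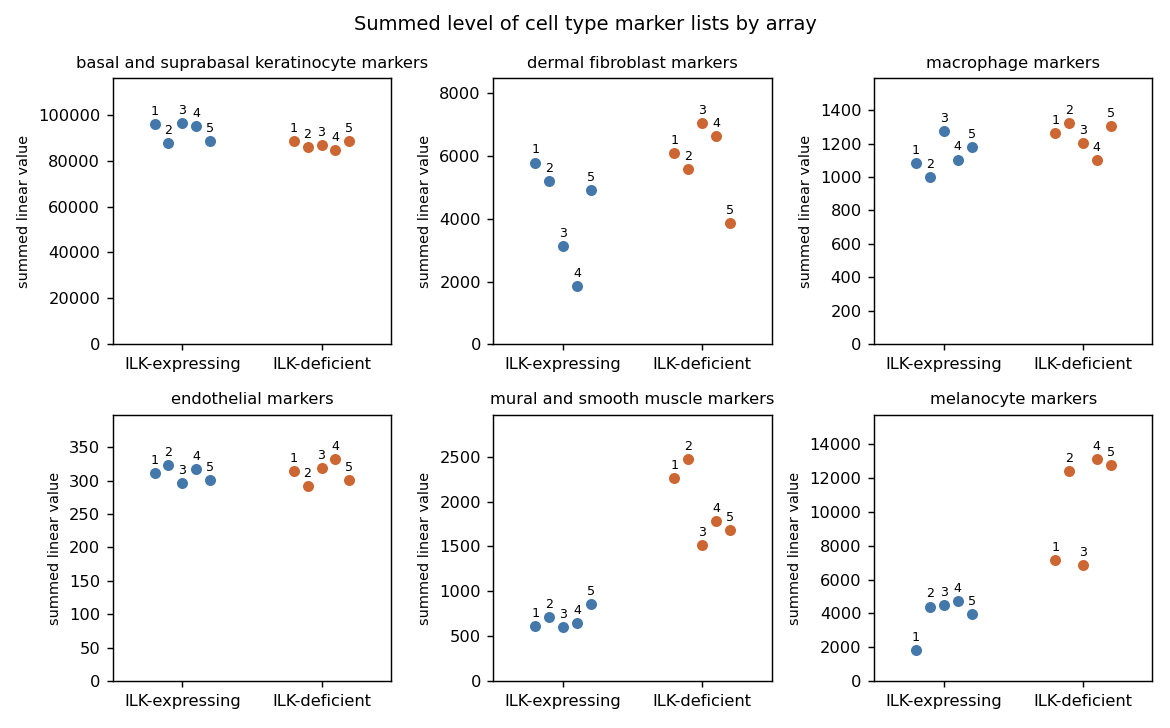
Summed linear values (vertical axis, starting at 0) of 6 lists of cell type markers, 1 numbered point per mouse. The fibroblast sum, most of it Dcn, overlaps between the genotypes and is lowest in ILK-expressing replicate 4, at 1871. The mural list separates at 1510 or more against 857 or less, and the melanocyte list at 6861 or more against 4750 or less. Of the 6 mural markers tested, Acta2 and Cspg4 alone were called, and the other 4 had log2 differences between -0.05 and 0.08.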

How the data were processed

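Epidermal RNA of 5 ILK-deficient and 5 ILK-expressing mice was hybridised to 10 arrays, 1 per mouse. The authors background-adjusted, quantile-normalized and summarised the scans to the deposited log2 values. Their methods name GC-RMA and RMA without stating which made the table. Quantile normalization gives arrays a common distribution, so a shift shared by most transcripts could not be seen.

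Groups were taken from the sample titles. Probe sets that reached 50 on the linear scale in no fewer than 5 arrays entered limma 3.58.1 (lmFit, eBayes) in R 4.3.3 without covariates. The test was also run on simulated arrays in which probe sets varied independently of each other. Single genes were also compared by exact permutation over the 126 divisions of arrays. The number of arrays limits the precision. Members and gene lists were chosen with earlier results of these data known. Named genes were the members and, from each list, up to 6 called genes and up to 2 abundant ones that did not pass, the 3 genes closest to each member, up to 3 called genes of a marker list, and Ilk. Alternatives changed filter, scaling, test, weights, block, probe set rule or arrays. The one-way ANOVA of the study's methods was given Benjamini-Hochberg adjustment here, which those methods do not state. A gene of the plasminogen list is not reported here.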

Additional observations from a re-analysis of the deposited data

Results flagged for a closer look

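Postn in ILK-expressing replicate 4, at 12.72, lay apart from the other 4 arrays of its genotype, the nearest of which was at 12.98. The gap was 0.799 of the range of the group, above the critical value of 0.71. Chance gives such a gap in about 1 of 20 groups, and 10 groups of 5 arrays were tested. The same array was the lowest for Tnc and Fn1.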

How the results depend on the processing

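Tnc stayed called and higher under all 21 alternatives, with adjusted p values of 0.00142 to 0.028 from limma and the methods' ANOVA, and Fn1, Postn and Plau kept their directions and were not called under any of them. With the replicate block, Tnc kept a log2 fold change of 1.37, and that block changed no other member's call. It lost Bgn, gained Lamb3 among the matrix genes, lost both receptor calls (0 against 2) and lowered all calls to 608, but the replicate numbers were not taken as pairs, since same-numbered arrays deviated together with r = -0.30 to 0.11 and the labels state no pairing. Leaving out each array in turn gave log2 fold changes of 1.21 to 1.48 for Tnc, 0.38 to 0.61 for Fn1, -0.12 to -0.03 for Postn, 0.05 to 0.24 for Plau and 0.41 to 0.59 for Plat. It gave 1 member called each time, 0 to 1 other plasminogen genes, 2 to 5 other wound matrix genes, 0 to 3 receptors and 597 to 1010 of all probe sets, against 1211. The 1 plasminogen call came without ILK-expressing replicate 4. The 2 matrix calls came without ILK-deficient replicate 1 or 5 or ILK-expressing replicate 2 or 4. The receptor count fell to 1 or 0 without any array but ILK-deficient replicate 3, and was 0 without ILK-deficient replicate 1 or 5 or ILK-expressing replicate 4. The removal of ILK-deficient replicate 1, 2 or 5 or of ILK-expressing replicate 2 or 4 moved the count over all probe sets by over 1.5 times (721, 757, 597, 798 and 650).

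Plat was called with the letter code of the descriptions as a block (0.59) and with the mean of each gene's probe sets, which left out unnamed probe sets and so made fewer tests (0.50), each making 2 members called. Other plasminogen genes gave 1 call with array weights (Hgf) and 2 with the mean of probe sets (Hgf and Masp1, named after their values were seen). Other wound matrix genes gave 2 calls with the methods' ANOVA and 2 with the arrays coded D alone, and 6 with the mean of probe sets, Sparc being lower there and with the letter code as a block. Receptors gave 1 call with the filter at 100, and 0 with the ANOVA, the letter code as a block and the arrays coded D. Those arrays, 4 ILK-deficient and 3 ILK-expressing, gave 294 calls in all, and the ANOVA 686. The cause of these moves was not tested. Plaur lay under the filter, and the fit without it is given above.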
